A study of Mus musculus with 24 samples.

Results

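The genes that encode the proteins of the cytosolic ribosome were followed across RNA from mouse gastrocnemius muscle. They were chosen by name alone, as protein-coding genes whose symbol is Rpl or Rps with a number, Rplp0, Rplp1, Rplp2 or Rpsa, leaving out pseudogenes, the Rps6k kinases and Rps19bp1. The rule found 85 genes among the 54532 in the count files, 52 of the large subunit and 33 of the small subunit. Of these, 83 passed the filter on low counts in each sex, and Rpl10l and Rpl39l did not.

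The samples came from wild-type C57/BL6 mice, 24 in all, with 4 in each of 6 groups that combine sex with 3 conditions. Control animals were sedentary and had 2 injections of saline at pH 7.2 ± 0.1 into the left gastrocnemius, with 20 µl per injection and 5 days between them. For sedentary pain the volume and spacing were the same but the pH was 5.0 ± 0.1, with 6 min of electrically driven contraction of that muscle before the second injection. Active pain animals had running wheels for 8 weeks and then went through the same pain induction. All samples carry a time of 24 h. Controls had neither the acid nor the contractions, so these 2 cannot be told apart as sources of a difference from control. No active group without pain was analysed here, so running was compared only within the pain groups. The labels do not say whether libraries came from separate animals, so p-values measure the spread between these samples.

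A ribosome joins a small subunit, which reads the messenger RNA, to a large subunit, which forms the peptide bonds. Its proteins are made in nearly equal numbers, and in many of their messenger RNAs the first bases are a run of pyrimidines (C and T), the 5′ terminal oligopyrimidine tract, through which mTOR and the RNA-binding protein Larp1 control translation. Striated muscle is known for a swap of 1 subunit: Rpl3l, a paralog of the core protein Rpl3, is made in muscle fibres in its place, while Rpl3 is used in most other cells. Ribosomal protein genes are also strongly expressed in growing and immune cells.

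The start sites were read from RefSeq (GRCm38.p6), which had 65 of the 85 genes, with 77 annotated starts. A run counted where a C within 5 bases of the start opened at least 5 bases of C and T on the gene's own strand. Such a run was present at 30 of the 65 genes (46.2%), against 21.2% of all 27025 genes in the same table. A missing run says only that these letters are not at that annotated start. The windows below hold 15 bases before and 15 bases from the start, 5′ to 3′, with the run in capitals. They were chosen after the values were seen, to set 5 genes that rose in female sedentary pain (the first 5) beside 2 whose change was near 0 and Rpl3l, which fell.
Rpl13a, chr7:45128731-45128760 (- strand): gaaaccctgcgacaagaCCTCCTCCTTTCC
Rps15a, chr7:118116133-118116162 (- strand): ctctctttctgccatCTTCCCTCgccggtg
Rpl38, chr11:114668565-114668594 (+ strand): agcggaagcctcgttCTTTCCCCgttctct
Rps6, chr4:86857353-86857382 (- strand): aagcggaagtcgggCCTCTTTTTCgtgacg
Rps16, chr7:28350674-28350703 (+ strand): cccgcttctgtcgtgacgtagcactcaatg
Rpl15, chr14:18270972-18271001 (- strand): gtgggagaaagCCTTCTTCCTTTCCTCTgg
Rpl5, chr5:107900513-107900542 (+ strand): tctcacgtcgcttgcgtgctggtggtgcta
Rpl3l, chr17:24727811-24727840 (+ strand): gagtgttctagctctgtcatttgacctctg
The run of Rpl13a, 14 bases, goes on past its window, so its end is not shown. The longest run of these 8, 17 bases, belonged to Rpl15, which was not called, and Rps16 rose with no run at its annotated start. Among genes that rose in female sedentary pain, 22 of the 40 in the table had a run. Among the tested genes that did not rise, 8 of 23 had one. These counts are a description without a test.

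Rpl3l has 2 annotated starts in the table, and neither had a run. The 250 bases before the first, whose window is printed above, are shown because it was the one gene here that fell; capitals mark the letters CANNTG, the E-box core that muscle transcription factors of the MyoD family can bind, which reads the same on both strands.
Rpl3l, chr17:24727576-24727825 (+ strand): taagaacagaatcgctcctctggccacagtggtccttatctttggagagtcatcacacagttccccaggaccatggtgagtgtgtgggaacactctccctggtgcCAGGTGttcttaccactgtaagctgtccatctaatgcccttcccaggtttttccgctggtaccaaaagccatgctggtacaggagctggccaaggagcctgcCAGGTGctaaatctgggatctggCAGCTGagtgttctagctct
It held 3 matches, and the 250 bases before the other start (chr17:24732435-24732684) held 1. At least 3 matches were found before 12.2% of all 32851 starts in the table and before 2.60% of the 77 starts of ribosomal protein genes. A match is not evidence of binding.

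Levels were compared per kilobase of coding sequence, as CPM, read counts scaled to an equal library size, averaged over the 24 samples. The median gene stood at 390.4 CPM per kb. Rpl41, which encodes a very short peptide, was highest at 3530 CPM per kb, and was followed by Rps29 at 1844 and by the stalk protein Rplp1 at 1775 CPM per kb. Rpl3, a core protein of the large subunit, reached only 63.6 CPM per kb and ranked 77th of 85, while its muscle paralog Rpl3l stood at 390.4 CPM per kb, itself the median gene, and was higher than Rpl3 in all but 1 of the 24 samples. 5 genes were under 10 CPM per kb: Rpl36al at 5.24, Rpl24 at 4.26, Rps10 at 0.954, Rpl39l at 0.447 and Rpl10l at 0. The count of 0 for Rpl10l allows up to 0.170 CPM in the shallowest library.

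Reads of several members can fall on processed copies. Rps10 had 293 counts over all samples, while its 4 named pseudogenes had 20370. For Rpl38 the pseudogenes had 49.0 counts per 100 of the gene, for Rpl21 42.2 and for Rpl14 40.2. Values of these 4 genes are therefore uncertain. Rpl36a (18.2), Rpl17 (17.3) and Rpl23a (16.7) came next. Values of Rpl24, Rpl36al and Rpl13a are uncertain for another reason, their low levels. Rpl24 and Rpl36al had no pseudogene named after them, and that of Rpl13a had 22 counts. The 300 pseudogene rows whose symbol starts with Rpl or Rps and ends in -ps held 1.92 to 2.25 counts per 100 member counts. Female sedentary pain stood at 2.15 ± 0.0769 and female controls at 2.01 ± 0.0847 (SD, n = 4). Copies annotated under other names were not counted, so these values do not limit the reads lost to copies.

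Libraries held 17612139 to 34039699 counts, so counting error was small beside the spread between samples for all but the lowest members. The labelled tissue was checked with 15 muscle fibre markers, among them Ckm, Acta1 and Myh4: none was at 0 in any group, and their sum was 151800 to 321492 CPM over the 24 samples. 1 male sedentary pain library (replicate 1) stood apart from its group in ribosomal protein counts. Male active pain replicate 2 had the highest share of its group but was not past the limit used for an outlying value. Results that rest on either are given with and without it. The numbers in the file names put replicates 1 and 2 of every group at 20 or lower and replicates 3 and 4 at 25 or higher, so each comparison of conditions within a sex is also given within each of these 2 sets, as the median over members of the difference of mean log2(CPM + 1); the labels do not say what the numbers mark.

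The 85 genes together took 1.13% to 4.12% of all counts. In female controls the shares were 1.59%, 1.41%, 2.07% and 1.68%. In female sedentary pain they were 1.88%, 3.02%, 2.51% and 4.12%. 3 of these 4 libraries lay above all controls, and replicate 1 lay within the control range. In female active pain the shares were 1.99%, 1.71%, 2.30% and 1.86%, which overlapped with the controls. Male controls were lower and tighter, at 1.13%, 1.27%, 1.35% and 1.25%. Male sedentary pain gave 2.79% in replicate 1 and 1.26%, 1.34% and 1.34% in the others. Male active pain gave 2.37% in replicate 2 and 1.63%, 1.37% and 1.22% in the others. In male sedentary pain only replicate 1 lay above every control, while in male active pain replicates 1, 2 and 3 did, replicate 3 by little.

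**Figure D1:**
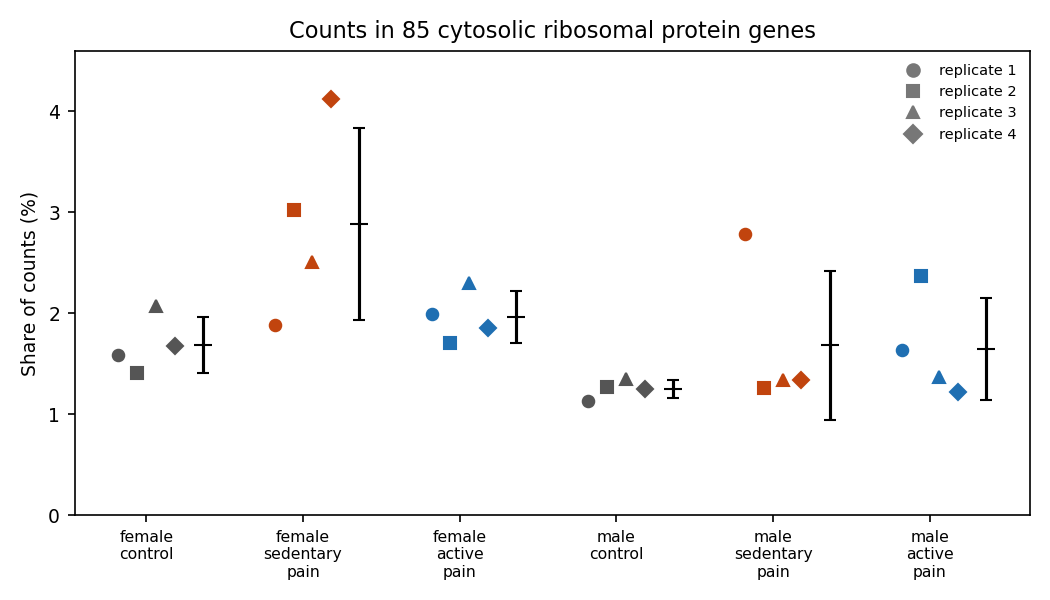
Share of all counts, in percent, that fell on the 85 ribosomal protein genes in each of the 24 samples. Marker shapes give the replicate number and black bars the group mean ± SD (n = 4); female sedentary pain spans 1.88% to 4.12%, and male sedentary pain replicate 1 (2.79%) stands far above the other 3 of its group.

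Sedentary pain against control in females asks what the muscle insult did without prior running. Ribosomal protein genes were higher: 53 of the 83 tested rose, 1 fell and 29 were not called. Over all 14511 genes tested, 33.5% were called at an adjusted p under 0.05, 19.6% higher and 13.9% lower. The median change of the 83 was 0.65 on the log2 scale, with quartiles of 0.52 and 0.85, against -0.02 for all genes. 81 of the 83 changes were positive, and 72 had an unadjusted p under 0.05, which 47.6% of all genes had. 6 of the 83 had every pain sample above every control, against 15.3% of all genes. Within replicates 1 and 2 the median difference was 0.62, and within replicates 3 and 4 it was 0.61. With library totals as the only scaling 74 of the 83 rose and none fell, where 26.2% of all genes were called higher and 5.4% lower.

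The number of calls rested on single libraries, since adjusted p-values lay between 0.015 and 0.050 for all 54. Leaving out 1 library gave 1 to 74 calls, while the median stayed between 0.50 and 0.82 in all 12 such fits. The count was 74 without pain replicate 1, where 44.9% of all genes were called. It was 1 without control replicate 2 (19.2% of all genes) or pain replicate 4 (16.9%), 4 without control replicate 1 (20.9%) or control replicate 4 (21.3%), 5 without pain replicate 2 (24.4%) and 30 without active pain replicate 4 (28.6%). In the fits with 5 calls or fewer the share of the 83 members was thus far below that of all genes. The count was 34 with a correction for GC content and length (36.3% of all genes), 30 without a filter on low counts (16.2%), 4 with only both groups in the fit (20.1%), and 0 with 1 surrogate variable, where the median was 0.0049 and 0.786% of all genes were called.

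Both subunits took part. Of the small subunit 25 of 33 genes rose and none fell, with a median of 0.77. Of the large subunit 28 of 50 rose and 1 fell, with a median of 0.62. The difference between the subunits was not tested. The 6 largest called rises among members averaging 1 or more in log2 CPM were those of Rpl3 (1.38 ± 0.38, SE; adjusted p = 0.019), Rpl38 (1.06 ± 0.37; 0.046), Rps29 (1.04 ± 0.32; 0.029), Rpl13a (1.002 ± 0.26; 0.015), Rps28 (0.9998 ± 0.30; 0.027) and Rps26 (0.98 ± 0.30; 0.030), all log2 changes. Rpl36al, below that level, rose by 1.18 ± 0.39 (0.036). Rpl38, Rpl36al and Rpl13a are among the genes with uncertain counts.

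**Figure D2:**
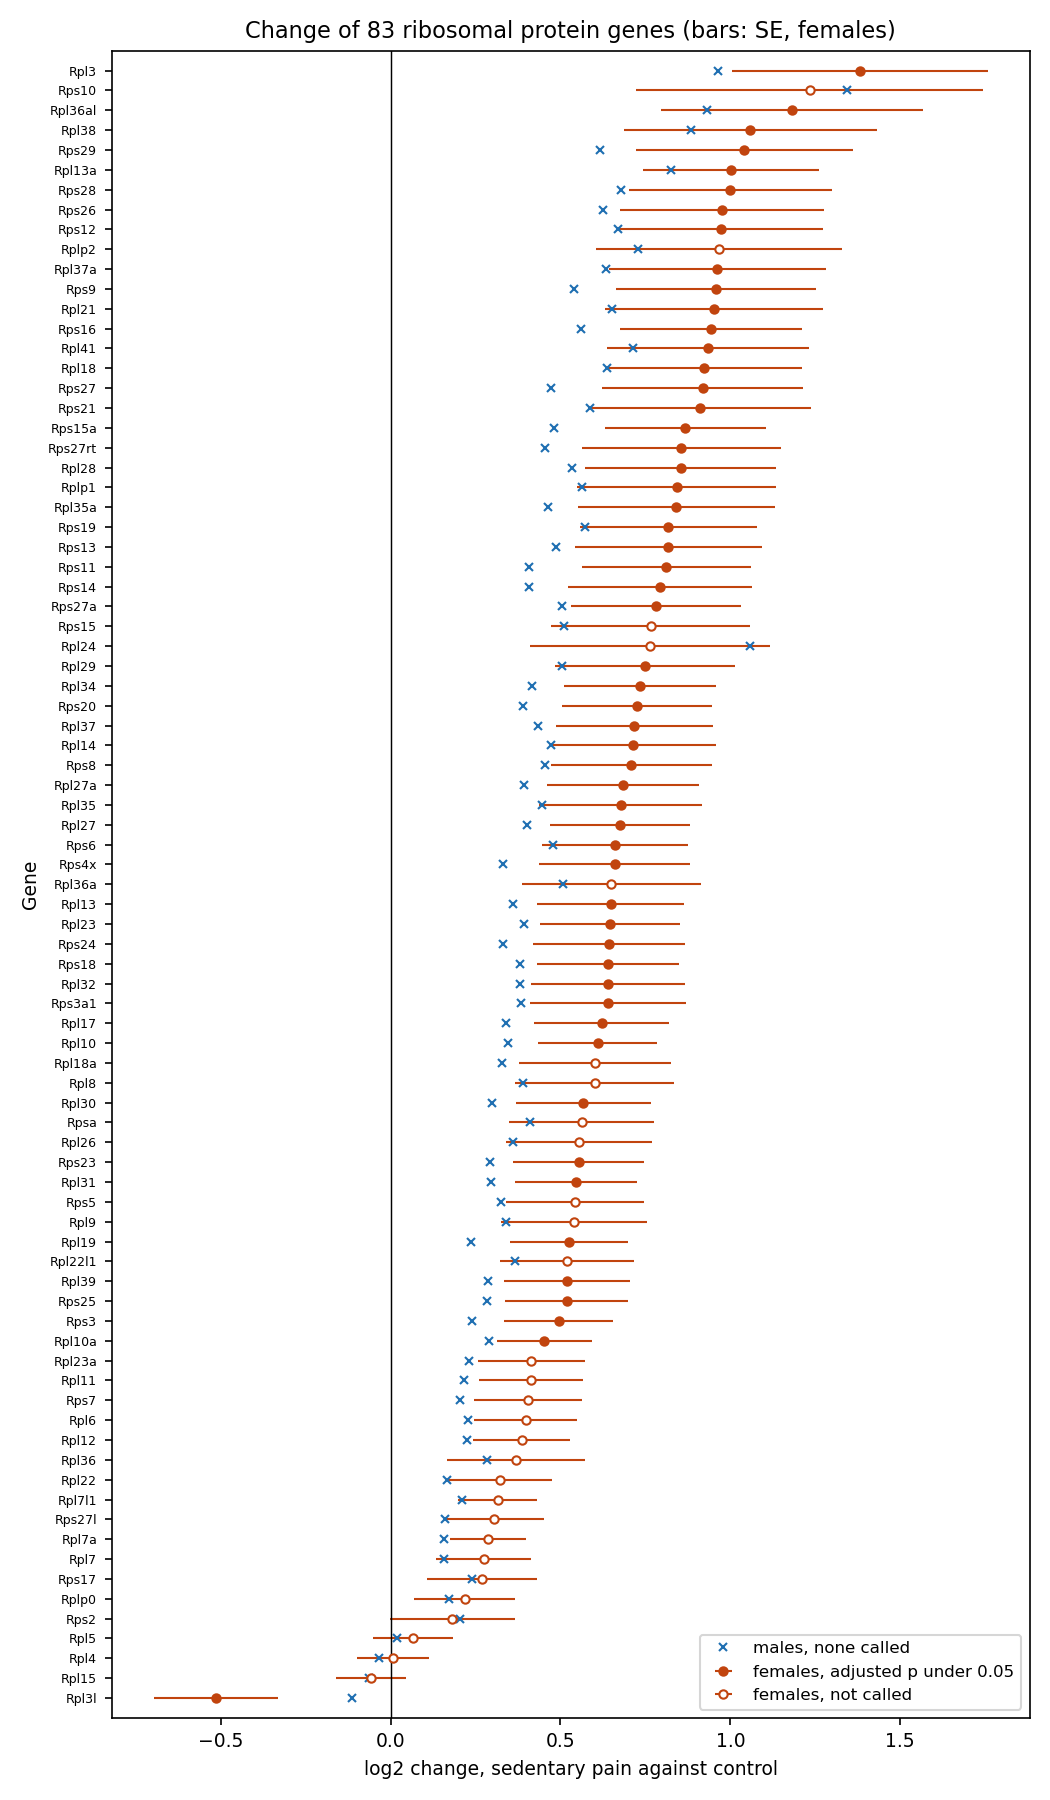
Log2 change in sedentary pain against control for each of the 83 tested ribosomal protein genes, ordered by the female value. Orange points with bars are females (SE; filled where the adjusted p was under 0.05) and blue crosses males, of which none was called; Rpl3 is at the top with 1.38 and Rpl3l at the bottom with -0.52 in females.

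Rpl13a, a large subunit protein that is also part of a complex that silences translation of inflammatory messages, had the smallest adjusted p of the family, 0.015, at a level of 13.9 CPM per kb where the counts are uncertain. Its CPM values in female controls were 7.15, 5.64, 8.82 and 7.24, and in sedentary pain 9.07, 19.5, 10.8 and 19.3. Every pain sample lay above every control, and replicates 2 and 4 were the highest. Active pain gave 7.93, 7.27, 10.6 and 7.35 CPM, close to the controls. Its call was kept in 23 of 26 alternative fits.

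Rps16, a small subunit protein near the decoding site, showed the same separation. Control values were 144, 113, 146 and 139 CPM and pain values 152, 303, 203 and 400.4 CPM, a log2 change of 0.94 ± 0.27 (SE; adjusted p = 0.022). Pain replicate 1 was only just above the highest control. Rps15a, another small subunit protein, had 147, 135, 195 and 156 CPM in controls and 183, 342, 233 and 415 CPM in pain, a change of 0.87 ± 0.24 (adjusted p = 0.019). Here control replicate 3 reached above pain replicate 1, so the groups overlapped. The calls of Rps16 and Rps15a were kept in 20 and 21 of the 26 fits. Over all 54 called members the number ran from 6 to 23, and among those named here it was 8 for Rpl39, 9 for Rplp1, 11 for Rpl13, Rps3 and Rpl38, 12 for Rps4x and 13 for Rpl10a. Both genes were singled out after their values were seen.

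The other genes whose pain samples all lay above the controls had smaller changes, and they too were singled out by that outcome. Rpl13 changed by 0.65 ± 0.22 (SE; adjusted p = 0.040), Rps3, a small subunit protein that also acts in DNA repair, by 0.50 ± 0.16 (0.036), and Rpl10a by 0.45 ± 0.14 (0.030). Rpl7l1, the paralog of Rpl7, changed by 0.31 ± 0.12 and did not pass the test (adjusted p = 0.054).

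The ribosomal stalk recruits the GTPase translation factors and is built from Rplp0, the anchor, and dimers of Rplp1 and Rplp2. Differences between the 3 genes were not tested. Rplp1 had 579, 438, 594 and 495 CPM in controls and 572, 1408, 600.8 and 1249 CPM in sedentary pain, a called rise of 0.84 ± 0.29 (SE; adjusted p = 0.045). Replicates 2 and 4 of the pain group were far above every control, and replicates 1 and 3 were near the highest controls. Rplp2 had the same pattern, with 215, 154, 294 and 193 CPM in controls and 223, 605, 252 and 616 CPM in pain, but its change of 0.97 ± 0.36 did not pass (adjusted p = 0.057). For Rplp0 the values were 950, 839, 861 and 837 CPM in controls and 855, 1259.7, 847 and 1146 CPM in pain. Its change was 0.22 ± 0.15 (adjusted p = 0.26), so replicates 2 and 4 were again the highest but by a smaller margin.

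Rpl5 and Rpl11 form the particle with the 5S ribosomal RNA that also binds the p53 regulator Mdm2. Rpl5 ranged from 259 to 291 CPM in female controls and from 256 to 339 CPM in sedentary pain, with a change of 0.07 ± 0.12 (SE; adjusted p = 0.68). Its groups overlapped: pain replicates 3 and 4 were above every control, and replicate 2 was below every control. Rpl11 was at 186, 159.6, 203 and 191 CPM in controls and at 187, 254, 243 and 314 CPM in pain, a change of 0.41 ± 0.15 (adjusted p = 0.055). The changes of Rpl4 (0.01 ± 0.11; adjusted p = 0.97), Rpl15 (-0.06 ± 0.10; 0.67) and Rps2 (0.18 ± 0.18; 0.45) were also near 0; these genes were picked for that. Rpl4 lay at 686 to 782 CPM in controls and at 723 to 807 CPM in pain.

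Rps6, the substrate of the S6 kinases below mTOR, rose by 0.66 ± 0.21 (SE; adjusted p = 0.036), from 226, 179, 276 and 214 CPM to 250.1, 436, 296 and 453 CPM. Replicate 1 of the pain group lay inside the control range. Rps27a, which is made as a fusion with ubiquitin, rose by 0.78 ± 0.25 (adjusted p = 0.034). Rpsa, also known as the laminin receptor, had 569 to 713 CPM in controls and 674, 1266, 727 and 1232 CPM in pain, and its change of 0.56 ± 0.21 did not pass (adjusted p = 0.059).

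The size of the change went with the length of the coding sequence. Of the members under 300 coding bases 10 of 11 rose, with a median of 0.92. From 300 to 600 bases 32 of 48 rose, with a median of 0.68. Over 600 bases 11 of 24 rose and 1 fell, with a median of 0.52. Spearman's rho between length and change was -0.45 across the 83 genes, which share the same libraries and are not independent. Other coding genes showed a like order at lower values: medians were 0.22 under 300 bases (70 rose and 19 fell of 275), 0.20 from 300 to 600 bases and -0.07 above. With the correction for GC content and length the members' median was 0.38, with 33 rising and 1 falling. In the other comparisons with control that correction took the median from 0.25 to 0.063 (female active pain), from 0.39 to 0.17 (male sedentary pain) and from 0.30 to 0.13 (male active pain). Rpl3, with 1209 coding bases, was far above genes of its length. The part of fragment length or RNA integrity in this order was not tested.

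**Figure D3:**
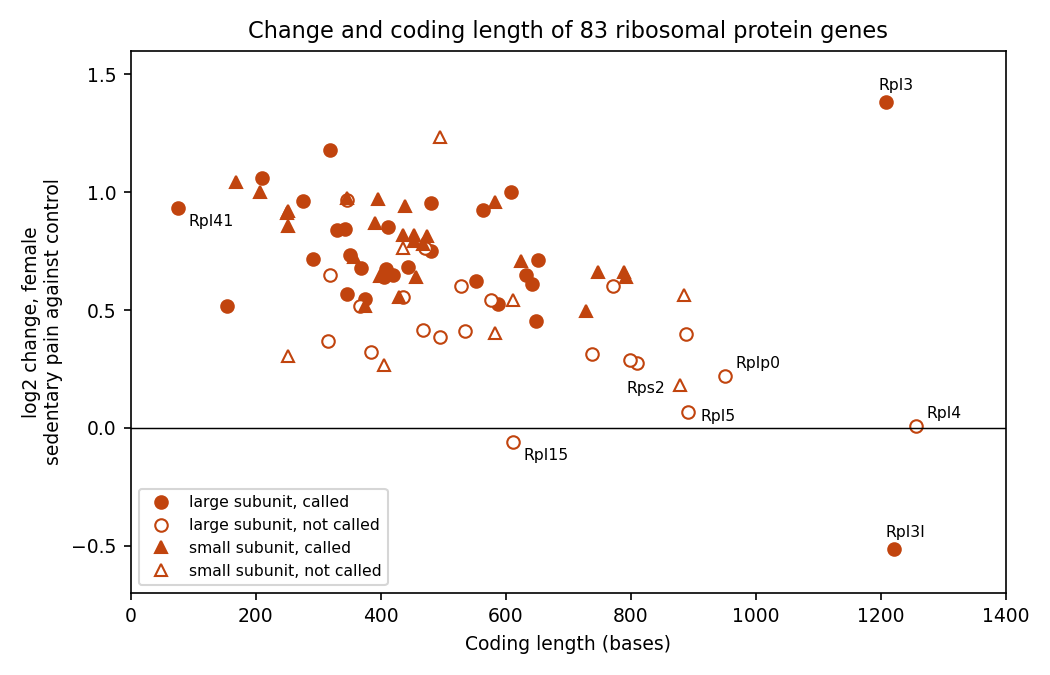
Log2 change in female sedentary pain against control, plotted against coding length in bases, for the 83 tested genes (circles: large subunit; triangles: small subunit; filled: adjusted p under 0.05). Short genes lie near 0.92 at the median and those over 600 bases near 0.52, with Rpl3 (1.38) and Rpl3l (-0.52) at opposite ends.

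Of the paralog pairs, Rpl3 and Rpl3l moved in opposite directions. Rpl3 was at 38.2, 38.4, 90.5 and 80.2 CPM in female controls and at 83.4, 126, 187 and 258 CPM in sedentary pain. All but the lowest pain sample were above every control; that sample lay between control replicates 3 and 4. Rpl3 was 2.61-fold higher by the fit, and its call was kept in 23 of 26 alternatives, lost without control replicate 2 (adjusted p = 0.052), without pain replicate 4 (0.058) and with 1 surrogate variable (0.99). The fit without that control gave a change of 1.23 and the fit without that pain sample 1.10.

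Rpl3l was at 559.8, 521, 481 and 467 CPM in controls and at 426, 459, 296 and 255 CPM in sedentary pain, so every pain sample lay below every control, as did 11% of all genes. It fell by 0.52 on the log2 scale (SE 0.18, adjusted p = 0.047). The call was held in 10 of 26 alternatives, with the sign kept in all 26. It was lost on leaving out any one control or active pain library (adjusted p = 0.059 to 0.12) or pain replicate 3 (0.12) or 4 (0.13), with several other scalings and filters, and with 1 surrogate variable (0.96). The change was -0.83 with the correction for GC content and length, and -0.36 without pain replicate 4.

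Per kilobase of coding sequence, Rpl3l exceeded Rpl3 by 14.5, 13.4, 5.26 and 5.77 times in female controls. In sedentary pain the ratio was 5.06, 3.61, 1.57 and 0.979, and replicate 4 was the one library of 24 with more Rpl3 than Rpl3l. Active pain gave 10.8, 8.66, 5.32 and 6.32, within the control range. In male controls the ratio was 17.2, 14.3, 11.7 and 16.3. In male sedentary pain it was 2.79 in replicate 1 and 12.3, 12.6 and 10.9 in the others, and in male active pain 3.92 in replicate 2 and 9.78, 10.4 and 11.5 in the others. The libraries with the lowest ratio in each male pain group were those with the highest ribosomal protein share. Female replicates 1 and 2 and replicates 3 and 4 differed already among controls. Within replicates 1 and 2 the log2 difference in sedentary pain was 1.40 for Rpl3 and -0.29 for Rpl3l, and within replicates 3 and 4 it was 1.35 and -0.79.

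**Figure D4:**
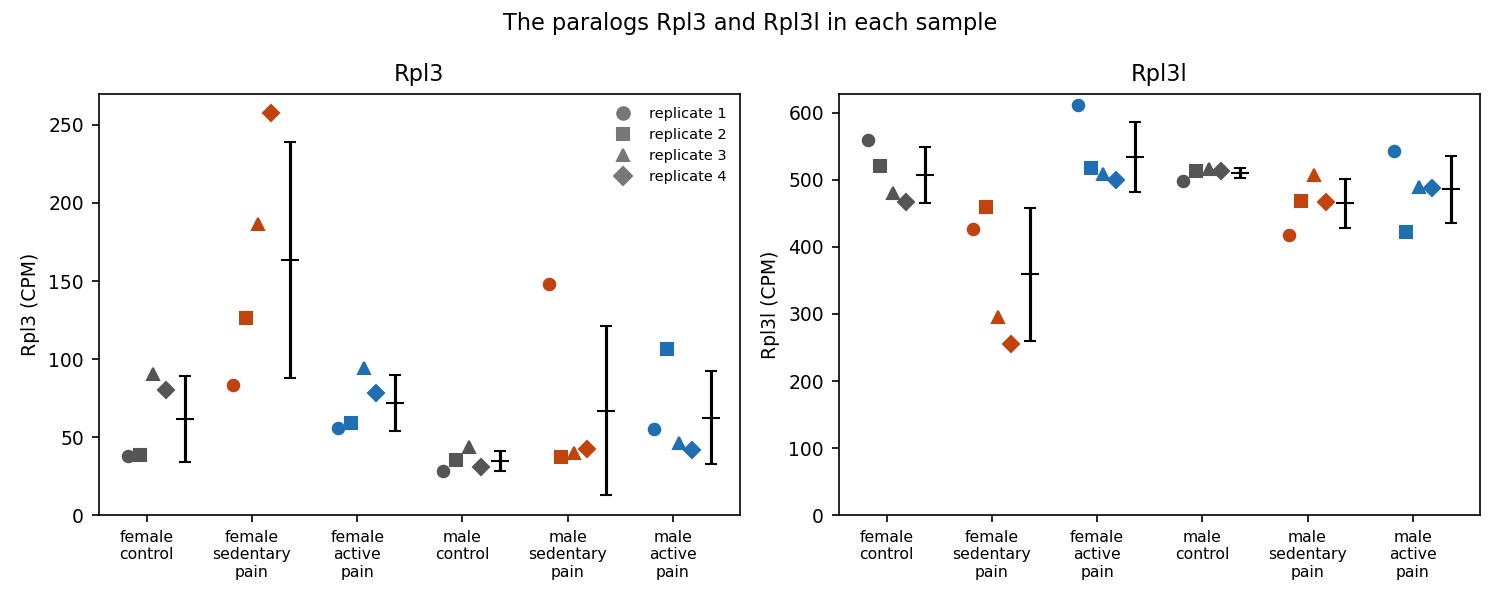
CPM of Rpl3 (left) and Rpl3l (right) in each sample, by group, with marker shapes for the replicate number and black bars for mean ± SD (n = 4). In female sedentary pain Rpl3 runs from 83.4 to 258 CPM and Rpl3l from 255 to 459 CPM, below all 4 controls.

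The other pairs were less divided. Rps27 rose by 0.92 ± 0.30 (SE; adjusted p = 0.034), while its paralog Rps27l, a p53 target, changed by 0.30 ± 0.15 (0.12). Their ratio per kilobase was 2.84 to 3.76 in female controls and 3.07, 4.92, 4.53 and 6.54 in sedentary pain, and it was 5.61 in male sedentary pain replicate 1 against 2.91 to 3.15 in the rest of that group. Rpl22 (0.32 ± 0.15; 0.11) and Rpl22l1 (0.52 ± 0.20; 0.060) were not called, and their ratio overlapped between the groups at 3.38 to 4.66 and 2.78 to 4.38. Rpl7 changed by 0.27 ± 0.14 (0.14). Rpl10 rose by 0.61 ± 0.17 (0.023), Rpl39 by 0.52 ± 0.185 (0.048) and Rps4x by 0.66 ± 0.22 (0.040), and Rpl36a changed by 0.65 ± 0.26 (0.073). Their paralogs Rpl10l and Rpl39l had 0 and 44 counts over all samples, and Rps4l was not analysed here.

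Immune cell markers moved with the ribosomal protein genes in the same comparison. 17 of 18 macrophage and monocyte markers rose in female sedentary pain (median 4.31 on the log2 scale), Cd163 being the exception, as did 6 of the 6 tested of 8 neutrophil markers (median 5.46) and 6 of the 6 tested of 12 lymphocyte markers (median 4.22). The summed macrophage markers were 132 to 285 CPM in female controls and 603 to 7030 CPM in sedentary pain, with 1084, 4835 and 7030 CPM in replicates 2, 3 and 4. Summed neutrophil markers were 2.94 to 8.40 CPM in controls and 25.9 to 279 CPM in pain, highest in replicate 2. In females the lymphocyte sum was 0.841 to 3.33 CPM in controls and 4.80 to 118 CPM in sedentary pain. At such low control sums, neutrophil and lymphocyte markers could pass the filter on low counts through the pain samples alone. That all those tested rose is then no separate support. No defining marker was at 0 throughout these groups. 5 of 6 adipocyte markers fell (median -3.03). Their sum was 79.1, 46.5, 1104 and 560.0 CPM in female controls and 18.6, 58.8, 134 and 21.8 CPM in sedentary pain, so only control replicates 3 and 4 were above every pain sample. Of the 15 muscle fibre markers 1 rose (Des) and 2 fell (Myh2 and Ttn). 3 of 8 fibroblast markers and 1 of 6 satellite cell and myoblast markers rose, and 2 of 7 endothelial markers fell. Over all genes tested 19.6% rose and 13.9% fell. The muscle fibre falls and the satellite cell and myoblast rise were near those shares. Mitochondrially encoded counts were 8.59% to 11.02% of all counts in female controls and 8.22%, 3.85%, 5.86% and 2.75% in sedentary pain. The part of these cell types in the ribosomal protein values was not tested. In bulk tissue, more cells of a type and more RNA per cell cannot be told apart.

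**Figure D5:**
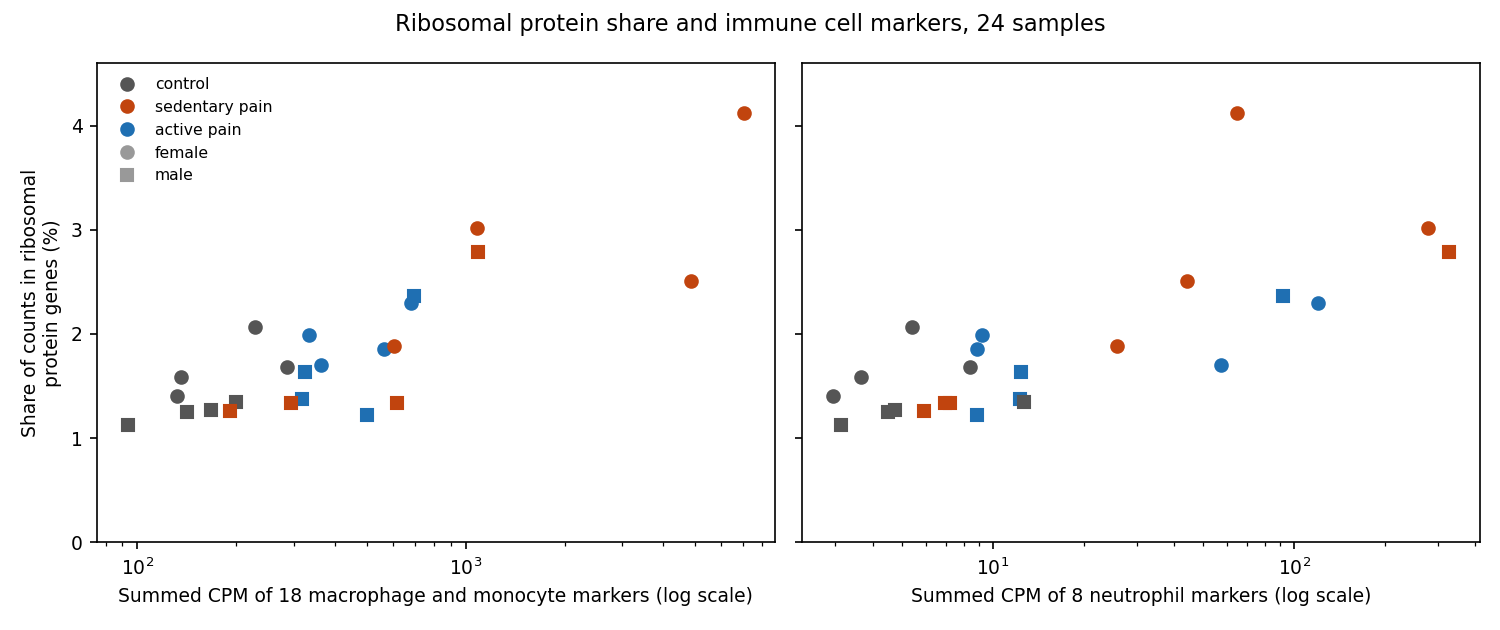
Share of counts in ribosomal protein genes (percent) against the summed CPM of 18 macrophage and monocyte markers (left) and 8 neutrophil markers (right), both on log scales, for the 24 samples (circles female, squares male; colours give the condition). The 8 controls have shares of 1.13% to 2.07% and macrophage sums of 93.6 to 285 CPM, ranges that overlap with those of the pain samples, and the female sedentary pain library with the highest share, 4.12%, has the highest macrophage sum, 7030 CPM.

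Genes that work with the ribosome were read from lists chosen with earlier results known. Over all genes 19.6% rose and 13.9% fell, and the median was -0.02. Of 73 ribosome biogenesis factors 21 rose and none fell (median 0.20), led by Nhp2 (1.25 ± 0.32, SE; adjusted p = 0.015), a box H/ACA particle protein, the nucleolar methyltransferase Fbl (1.22 ± 0.32; 0.015) and Gar1 (1.12 ± 0.29; 0.015), a partner of Nhp2. That count was 12 without control replicate 1 or control replicate 2, 13 without control replicate 4, 13 without a filter, 38 with library totals as the only scaling and 0 with 1 surrogate variable. With library totals the median of all genes moves from -0.02 to 0.17, and 26.2% of all genes were called higher and 5.4% lower, the shares to set beside each count with library totals. Among 77 tested mitochondrial ribosomal protein genes none rose and 1 fell, Mrpl3 (-0.36 ± 0.13; 0.048), with a median of 0.11. With library totals 14 of these rose and none fell. Without pain replicate 1 the calls were 9, of which 4 were higher, and without pain replicate 3 they were 8, all higher. The number of calls was 1 in only 2 of the 26 alternative fits and ran from 0 to 14 in the others.

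Of 49 translation factors 8 rose and 4 fell (median 0.03), both below the shares of all genes. Eif4a1, the helicase of the cap-binding complex, rose by 0.98 ± 0.16 (SE; adjusted p = 0.0026), Eif1a by 0.94 ± 0.17 (0.0038) and Eif3k by 0.71 ± 0.25 (0.047). Eef2k, the kinase that inhibits elongation factor 2, fell by 0.76 (SE 0.16; 0.0061), Eif4g3 by 0.70 (SE 0.21; 0.028) and Eif1ax by 0.46 (SE 0.14; 0.028). Eef1a1, the elongation factor of most tissues, changed by 0.92 ± 0.39 (0.082) and Eef1a2, its muscle paralog, by -0.28 ± 0.19 (0.25). The 12 calls became 4 or 5 without control replicate 1, 2 or 4 or without pain replicate 2 or 4, 4 with only both groups in the fit, 7 without a filter, 0 with 1 surrogate variable and 24 without pain replicate 1. With library totals 17 of 18 calls were higher.

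Of 27 genes of control by mTOR and Myc 4 rose and 9 fell (median -0.28), where 19.6% of all genes rose and 13.9% fell. Myc, an activator of ribosome genes, rose by 1.28 ± 0.33 (SE; adjusted p = 0.015), the translation inhibitor Eif4ebp1 by 0.84 ± 0.29 (0.043) and the Myc partner Max by 0.81 ± 0.22 (0.018). Tsc1 fell by 0.89 (SE 0.28; 0.032), Deptor by 0.89 (SE 0.22; 0.013) and Rictor by 0.86 (SE 0.24; 0.022). The first 2 restrain mTOR, and Rictor is a subunit of mTOR complex 2. Mtor itself fell by 0.65 (SE 0.23; 0.044) and Rps6kb1, its S6 kinase, by 0.81 (SE 0.26; 0.036). Larp1, which binds the oligopyrimidine tracts, changed by -0.22 ± 0.16 (0.29). The 13 calls became 3 to 6 without control replicate 1, 2 or 4 or pain replicate 2 or 4, 4 with all 24 samples in 1 fit, 5 with only both groups and 0 with 1 surrogate variable. With library totals 4 of 5 calls were higher. Outside the naming rule, Fau, a small subunit protein made as a fusion with a ubiquitin-like protein, rose by 1.23 ± 0.36 (0.024), and Rack1, a scaffold protein of the small subunit, was not called (0.32 ± 0.13; 0.076).

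Active pain against control in females asks what the insult did after running, and uses the same 4 controls as sedentary pain. None of the 83 genes was called, and none had an unadjusted p under 0.05, against 0% and 7.03% of all genes. The median was 0.25 against 0.0024 for all genes, and 82 of 83 values were positive. Within replicates 1 and 2 the median difference was 0.31, and within replicates 3 and 4 it was 0.18. Leaving out active pain replicate 3 or control replicate 2 lowered the median to 0.14 or 0.15. Only Rpl10a had every pain sample above every control, where 3.6% of all genes did. Its values were 195, 170.4, 192 and 194 CPM in controls and 244, 207, 246 and 215 CPM in active pain, and its change was 0.28 ± 0.14 (SE; adjusted p = 0.76). Rpl3 changed by 0.22 ± 0.37 (0.88) and Rpl3l by 0.07 ± 0.18 (0.92). The summed macrophage markers were at 332 to 679 CPM, above every control and overlapping with sedentary pain. The neutrophil sum was 8.87 to 120.3 CPM, again above every control, and the lymphocyte sum of 2.35 to 4.07 CPM overlapped with the controls.

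Active against sedentary pain in females uses the 4 sedentary pain samples of the comparison above. It gave a median of -0.42, with 78 of 83 values negative. Within replicates 1 and 2 the median difference was -0.33, and within replicates 3 and 4 it was -0.41. No member was called, while 11.9% of all genes were, and 11 of the 83 had an unadjusted p under 0.05, against 32.2% of all genes. Rpl3l was nearest to the threshold, at 0.59 ± 0.18 (SE; adjusted p = 0.055), with every active pain sample, from 500.1 to 611 CPM, above every sedentary one, as in 5.44% of all genes. Rpl13a changed by -0.80 ± 0.26 (0.060) and Rpl3 by -1.16 ± 0.38 (0.061). Sedentary pain replicate 1 decided the count: without it 35 members were called, 34 of them lower in active pain, and 29% of all genes were called. Without sedentary pain replicate 4 the median was -0.25. Of the 73 biogenesis factors 8 fell and none rose, near the shares of all genes called lower (9.41%) and higher (2.51%). Among the 8 were Eif6 (-0.83 ± 0.24, adjusted p = 0.044), Dcaf13 (-0.65 ± 0.17, 0.037) and Polr1e (-0.64 ± 0.19, 0.047). 15 of 18 macrophage markers fell in the same comparison.

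In males no member was called in sedentary pain against control, nor was any gene (0%), and 1 member, Rpl24, had an unadjusted p under 0.05, against 8.84% of all genes. The median was 0.39, and 80 of 83 values were positive, but no member had all pain samples above all controls, against 3.95% overall. The values rested on replicate 1: without it the median was 0.03. Rps16 shows the pattern, with 92.4, 108, 116 and 92.7 CPM in male controls and 285, 101, 107 and 102 CPM in sedentary pain. Rpl3 was at 28.7, 35.5, 43.7 and 31.1 CPM in male controls and at 148, 37.6, 39.8 and 42.3 CPM in sedentary pain, a change of 0.97 ± 0.46 (SE; adjusted p = 0.57), which was 0.22 without replicate 1. Rpl3l changed by -0.11 ± 0.10 (0.65), and by -0.067 without that library. Within replicates 1 and 2 the median difference was 0.59, and within replicates 3 and 4 it was -0.0068, with 38 values positive and 45 negative. Replicate 1 also held the highest neutrophil sum of all 24, 327 CPM against 5.89 to 7.20 CPM in the other 3, and the lowest mitochondrial share of the male libraries, 4.53%. Its macrophage sum was 1092 CPM, against 192 to 619 CPM in the other 3 and 93.6 to 200.1 CPM in male controls, and its fibroblast sum was the lowest of its group, 545 CPM. Their part in its ribosomal protein values was not tested.

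Male active pain against control gave a median of 0.30 and no call among 83 members or all genes (0%), with 0 members and 7.25% of all genes at an unadjusted p under 0.05. Within replicates 1 and 2 the median difference was 0.54, with 81 of 83 positive, and within replicates 3 and 4 it was -0.0079, with 36 positive and 47 negative. Without replicate 2 of the active pain group the fitted median was 0.17. Rps20 and Rpl26 had every pain sample above every control, against 6.34% of all genes. Rpl3 was at 55.0, 106.7, 46.6 and 42.1 CPM in active pain, with replicate 4 inside the control range. It changed by 0.85 ± 0.45 (SE; adjusted p = 0.63), and by 0.47 without replicate 2. Rpl3l changed by -0.07 ± 0.10 (0.74), and by 0.0023 without that library. The summed macrophage markers were 316 to 697 CPM, above every male control (93.6 to 200.1 CPM). Replicate 2 had the highest macrophage and neutrophil sums of its group (697 and 91.8 CPM), the lowest mitochondrial share (5.97%) and the lowest muscle fibre sum (183316 CPM). Their part in these values was not tested. Active against sedentary pain in males had a median of -0.08 (median differences of -0.029 within replicates 1 and 2 and -0.0026 within replicates 3 and 4), with 0% of genes called and 0 members against 0.84% of all genes at an unadjusted p under 0.05. Its sign turned with the libraries: the median was 0.26 without sedentary pain replicate 1, 0.0059 without active pain replicate 4, -0.022 without active pain replicate 3, -0.17 to -0.19 without another sedentary pain library and -0.23 without active pain replicate 2.

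Whether the changes differed between the sexes was tested directly on all 24 samples, as the female minus the male change. For sedentary pain the median difference was 0.29 on the log2 scale, no member and 0% of all genes were called, and 0 members had an unadjusted p under 0.05, against 9.57% of all genes. Without male sedentary pain replicate 1 the median was 0.64 and 64 members passed unadjusted, against 26.2% of all genes in that fit. With male active pain replicate 2 left out as well it was 0.59 and 58 passed, against 29.3% of all genes. Both fits called 0 members at an adjusted p under 0.05, against 0% and 3.85% of all genes. The median was 0.07 without female sedentary pain replicate 4 and 0.17 to 0.19 without female sedentary pain replicate 2 or any of male sedentary pain replicates 2, 3 and 4. For active pain against control the median was -0.04, with signs that varied between -0.14 and 0.09 over the 24 fits that leave out 1 library, and 0 members and 0% of genes were called; 2.03% of genes and 0 members passed unadjusted. For active against sedentary pain the median was -0.33, with 0 members and 0% of genes called. Rpl3l alone passed unadjusted there (0.51 ± 0.21, SE; adjusted p = 0.28), against 14.7% of all genes. Without male sedentary pain replicate 1 that median was -0.69 and 3 members were called, against 14.1% of all genes, and it was -0.13 without female sedentary pain replicate 4 and -0.20 to -0.22 without male sedentary pain replicate 2 or 4 or male active pain replicate 2.

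Male controls were also compared with female controls, and no member passed the adjusted test, while 2.83% of all genes did. The male minus female median was -0.39, against -0.03 for all genes, and 81 of 83 values were negative. 48 of the 83 genes had every male control below every female control, against 9.29% of all genes. 9 members had an unadjusted p under 0.05, a share below the 14.9% of all genes. Rpl7 had the smallest p, with 250.4, 269, 276 and 274 CPM in males and 349, 306, 410.5 and 354 CPM in females, a change of -0.41 ± 0.13 (SE; adjusted p = 0.12). The groups did not overlap. Rplp0 was at 625 to 686 CPM in males and 837 to 950.1 CPM in females (-0.40 ± 0.17; 0.26). With the correction for GC content and length the median was -0.22, and with 1 surrogate variable -0.11. Of the 4 X-linked members Rpl10 changed by -0.36 ± 0.18, Rps4x by -0.43 ± 0.23, Rpl39 by -0.40 ± 0.21 and Rpl36a by -0.61 ± 0.29. Rpl3 had the largest difference, -0.83 ± 0.44 (0.38), but its female values were split: replicates 1 and 2 (38.2 and 38.4 CPM) lay inside the male range of 28.7 to 43.7 CPM, and replicates 3 and 4 (90.5 and 80.2 CPM) above it. The latter are the female controls with adipocyte marker sums of 1104 and 560.0 CPM, against 17.0 to 189 CPM in male controls; the part of this in the Rpl3 values was not tested. The difference for Rpl3l was 0.01 ± 0.15 (0.98). Without male sedentary pain replicate 1, which is in neither group compared, 1 member was called, against 4.05% of all genes. In that fit 29 passed unadjusted, against 19.2%. Leaving it out renewed the estimated spread, the scaling and the filter on low counts.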

How the data were processed

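RNA of 24 muscle samples was sequenced; per the labels' protocols, RNA was isolated with a fibrous tissue kit and made into TruSeq stranded libraries read as 100-base pairs. The deposited files hold raw read counts per Ensembl gene, 1 file per sample, with no normalization by the authors in them. The submitters' processing notes name HISAT2 2.1.0, Salmon 0.9.1, featureCounts and DESeq2 1.24.0 and the builds mm10 and GRCm38.p6, with no role or order; the use of strand and the treatment of reads that map to several places are not given in the sources used here. Symbols came from GENCODE M21 (GRCm38) by identifier, for 54409 of 54532 genes.

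The members, lists and named genes were chosen with earlier results of these data known. Named were genes fixed by role, paralog pairs, the 6 largest called changes in each direction and, per list, up to 3 called genes in each direction; others are marked as chosen after their values were seen. Counts were fitted with edgeR 4.0.16 (R 4.3.3): TMM scaling, filterByExpr by group (minimum count 10), robust quasi-likelihood F tests, two-sided, Benjamini-Hochberg adjustment over all tested genes, threshold 0.05. Each sex was fitted on its own 12 samples, and sex differences and controls on all 24. CPM use TMM factors; log2 changes carry their SE. Library totals were 17612139 to 34039699 counts, which limits only the lowest members. The pipeline was tested on simulated data. Alternatives were other scalings, DESeq2 1.42.0, no filter, other sample sets, a replicate block, GC and length correction, a library-number term, a surrogate variable (sva 3.50.0), no mitochondrial genes and each library left out. Replicates 1 and 2 alone, 3 and 4 alone, and male sedentary pain replicate 1 and male active pain replicate 2 left out together were added after seeing the data. 1 gene of the lists is not reported here.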

Additional observations from a re-analysis of the deposited data

Results flagged for a closer look

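A sample was marked where its gap to the nearest of its group's 4 samples took up most of that group's range (Dixon's 95% limit). 150 sets of 4 values were checked and 25 were past the limit. Chance marks about 1 in 20 independent sets, but these sets share the same 24 libraries, so 1 library can mark many. Of the 25 past the limit, 21 were the first replicate of male sedentary pain, in which 76 of the 84 members with counts were marked as the highest. Its share of counts was 2.79%, against 1.26% to 1.34% in the other 3. Its ratio of Rpl3l to Rpl3 was 2.79 (others 10.9 to 12.6) and that of Rps27 to Rps27l 5.61 (others 2.91 to 3.15).

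Its values in CPM were 17.9 for Rpl13a, 285 for Rps16, 294 for Rps15a, 404 for Rpl13, 445 for Rps3, 287 for Rpl10a, 54.3 for Rpl7l1, 148 for Rpl3 and 567 for Rps29. The stalk genes stood at 1050.3 for Rplp0, 1131 for Rplp1 and 515 for Rplp2. Further values were 240.3 for Rpl11, 375 for Rps6, 1096 for Rpsa, 149 for Rpl22, 60.5 for Rpl22l1 and 339 for Rps27. Rpl3l, Rpl5 and Rps27l were not marked in this library.

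Replicate 2 of the female controls was the lowest of its group for Rps3 (276 CPM, others 330 to 340 CPM), Rpl10a (170.4 CPM, others 192 to 195 CPM) and Rpl5 (259 CPM, others 289 to 291 CPM). Replicate 1 of female active pain was the highest for Rpl3l (611 CPM, others 500.1 to 517 CPM).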

How the results depend on the processing

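The count of 54 members called in female sedentary pain was 30 with no filter on low counts, 4 with only both groups, 8 with the replicate block (25.8% of all genes called), 34 with the GC and length correction, 20 with both of these (33.4%), 0 with 1 surrogate variable, 1 in replicates 1 and 2 (1.67%) and 2 in replicates 3 and 4 (22.4%); leaving out 1 library gave 1 to 74. In female active against sedentary pain the count of 0 became 4 with library totals (0.827% of all genes higher and 15.6% lower, against 2.51% and 9.41% before), 3 with DESeq2 (18.4% of all genes called) or the library-number term (18.9%), 2 with the GC and length correction (17.8%), 2 with the replicate block (11.2%), 4 with both of these (19% of all genes), 1 with all 24 samples (15.7%) and 2 in replicates 3 and 4 (15% of all genes), each a smaller share of the members than of all genes; leaving out 1 library gave 0 to 35. For male against female controls it was 1 with DESeq2, 2 with 1 surrogate variable and 1 with both male libraries left out (leaving out 1: 0 to 1), and for the sex difference of active against sedentary pain 0 to 3 on leaving out 1. Each other count of 0 members stayed 0.

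Medians under 1 surrogate variable were 0.0049 in female sedentary pain against control, 0.12 in females with active compared with sedentary pain, -0.089 and -0.098 in male sedentary and active pain against control, and 0.0028 for the sex difference of active against sedentary pain. The fitted male sedentary pain median was 0.0066 in replicates 3 and 4 (-0.0068 as a difference of mean log2(CPM + 1)) and 0.032 with both male libraries left out. On leaving out 1 library the medians ran from 0.50 to 0.82 (female sedentary pain), 0.14 to 0.34 (female active pain), -0.59 to -0.25 (female active against sedentary), 0.034 to 0.52 (male sedentary pain), 0.17 to 0.41 (male active pain), -0.23 to 0.26 (male active against sedentary), 0.074 to 0.64, -0.14 to 0.09 and -0.69 to -0.13 (the sex differences in the same order) and -0.46 to -0.30 (male against female controls).

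Signs turned only in changes that were not called in that alternative. In female sedentary pain, 1 surrogate variable gave -0.0072 for Rplp2, -0.035 for Rpl5, -0.076 for Rpl11, -0.015 for Rps27a, -0.066 for Rpl7, -0.13 for Rpl22, -0.10 for Rpl36a, -0.16 for Rpl39, -0.082 for Rps4x, -0.15 for Rps27, -0.037 for Rps27l, -0.054 for Rpl4 and -0.0015 for Rps29. The GC and length correction gave -0.066 for Rplp0, -0.15 for Rpl4 and -0.20 for Rps2, and with the replicate block -0.066, -0.15 and -0.21. Rpl15 was 0.15 with library totals and 0.017 in replicates 3 and 4. Rpl4 was -0.025 with no filter, -0.018 without mitochondrial genes, -0.018 in replicates 1 and 2 and -0.021 to 0.043 on leaving out 1 library. Rpl5 was -0.023 in replicates 1 and 2, and Rps2 -0.014 in replicates 3 and 4. Rpl3l in female active pain was -0.0795 with the GC and length correction, -0.074 with the replicate block added and -0.012 to 0.11 on leaving out 1 library. Rpl3l in male active pain was 0.042 with library totals, 0.0095 with 1 surrogate variable, -0.11 to 0.0023 on leaving out 1 library and 0.0078 with both male libraries left out. With 1 surrogate variable Rpl3 was 0.012 for female active against sedentary pain and -0.023 for male sedentary pain. The causes were not tested.

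The labels give each group replicates 1 to 4. Same-numbered samples did not deviate together throughout: 10 of 24 pairs, 6 of them female, correlated above 0.1 (mean r 0.11 in females and 0.01 in males), so the numbers were not taken to pair the samples. Replicates 1 and 2 differ from 3 and 4 in library number.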
